A study of Mus musculus with 6 samples.

Results

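The secretory pathway and ER stress genes comprised 45 genes chosen by function, of which 44 were among the 22032 genes with a value and 1, *Mia3*, was not analysed here. They fell into 4 role groups, namely 15 chaperones and folding enzymes, 5 genes of the translocon, 15 genes of COPII export and retrieval with *Mia3* among them, and 10 genes of the unfolded protein response. All 44 genes with a value had a mean of at least 1 TPM and so were among the 13125 genes tested. TPM is the share of a transcript among all transcripts, corrected for length and scaled to the same total in every sample, so that levels of different genes can be compared within a sample. RNA-seq was performed on 3 samples of embryonic and 3 samples of adult mouse knee cartilage. The labels give the embryonic stage as 16.5 weeks and the study's text as embryonic day 16.5 (E16.5), and the adult mice were 2 months old. In both stages chondrocytes were sorted for BMPR1B, a bone morphogenetic protein receptor, after depletion of cells with alkaline phosphatase and of blood and endothelial lineages. The adult mice were male and of the B6 strain, no treatment or engineered allele is named for either stage, and the number of animals behind a sample is not stated, so that p-values measure only the spread between these samples. Values are listed in the order of samples 1, 2 and 3 of each stage, called embryos and adults for short.

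Chondrocytes secrete large amounts of collagen and aggrecan, which enter the endoplasmic reticulum (ER) through the translocon, are folded there with the help of chaperones and disulfide isomerases, and leave in vesicles coated with COPII proteins. Fibrillar procollagen is longer than an ordinary COPII vesicle is wide, and its export needs additional factors at ER exit sites. Resident ER proteins that escape are brought back from the Golgi by KDEL receptors in COPI vesicles. When unfolded proteins accumulate, the sensors IRE1 (*Ern1*), PERK (*Eif2ak3*) and ATF6 start the unfolded protein response, which raises chaperones and slows translation, and the related factors encoded by *Creb3l1* and *Creb3l2* act in matrix-producing cells of bone and cartilage.

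Several of these genes carry an ER stress element in their promoter, the sequence that ATF6 and XBP1 recognise together with the factor NF-Y. The promoters of the RefSeq table (build GRCm38.p6, 250 bases before to 50 bases after the start site) held 38 of the 45 genes. The ER stress element, CCAAT and CCACG with 9 bases of any kind between them, on either strand, was present in 7 of these 38 promoters (18.4%) and in 37 of all 27025 genes with a promoter in the table (0.137%). ER stress element II, ATTGG and CCACG with 1 base between them, was present in 2 of 38 (5.26%) and in 12 of all genes (0.0444%). The stretches are shown because 8 of the 9 promoters with either element belong to chaperones or folding enzymes, while few of all promoters hold it. Each runs 5′ to 3′ along the gene with the fixed bases of the element in capitals (written CGTGG and ATTGG where the ER stress element lies on the other strand), and *Hsp90b1* holds the element on both strands.
Hspa5: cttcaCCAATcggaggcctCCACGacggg
Hsp90b1: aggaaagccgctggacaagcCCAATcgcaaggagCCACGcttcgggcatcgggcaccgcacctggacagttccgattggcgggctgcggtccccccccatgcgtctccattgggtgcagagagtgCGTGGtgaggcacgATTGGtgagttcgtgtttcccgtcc
Calr: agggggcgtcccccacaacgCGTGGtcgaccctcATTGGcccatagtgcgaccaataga
Canx: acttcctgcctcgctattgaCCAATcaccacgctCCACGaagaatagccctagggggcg
Pdia6: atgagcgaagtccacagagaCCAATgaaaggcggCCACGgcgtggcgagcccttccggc
Dnajc3: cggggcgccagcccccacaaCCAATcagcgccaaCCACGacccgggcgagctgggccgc
Creld2: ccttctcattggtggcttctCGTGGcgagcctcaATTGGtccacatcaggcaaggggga
Dnajb11: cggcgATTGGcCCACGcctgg
Herpud1: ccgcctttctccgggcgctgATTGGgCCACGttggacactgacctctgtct
The stretch of *Hspa5* lies at chr2:34772020-34772048, plus strand, and that of *Dnajb11* at chr16:22857847-22857867, plus strand, both within the first exon as annotated by GENCODE M21. The others lie before the annotated exons, *Hsp90b1* at chr10:86705513-86705676, minus strand, *Calr* at chr8:84847055-84847113, minus strand, *Canx* at chr11:50325780-50325838, minus strand, *Pdia6* at chr12:17266471-17266529, plus strand, *Dnajc3* at chr14:118937807-118937865, plus strand, *Creld2* at chr15:88819500-88819558, plus strand and *Herpud1* at chr8:94386357-94386407, plus strand.

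A site for XBP1 or ATF6 (TGACGTGG or TGACGTGA, either strand) was found in 4 of the 38 promoters (10.5%), those of *Hspa5*, *Sec23a*, *Sec24d* and *Kdelr3*, and in 329 of all genes (1.22%). The ATF4 site TGATGCAA was found in the promoter of *Herpud1* alone among the 38 and in 279 of all genes (1.03%). Of the 9 genes with either ER stress element, 5 passed the test described below as higher in adult samples, 0 as lower and 4 were not called, with log2 fold changes from -0.49 to 1.15, where 23.9% of all tested genes were higher and 21.4% lower. Of the 28 measured genes whose promoter held neither, 7 were higher, 10 were lower and 11 were not called. In adult sample 2, *Calr* and *Pdia6* lay below every embryonic sample and the other genes with an element above every embryonic sample. A match of letters is a description of the sequence and not of binding.

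Pearson's r of log2(TPM + 1) across the tested genes, which are not independent replicates, was at least 0.951 within the embryonic samples and at least 0.907 within the adult samples, and at most 0.765 between stages. The 20 highest genes held more of the TPM in adult samples, and the tested genes had a median log2 fold change of 0.156, so that the values of the secretory genes are read against it. The median shifted to 0.028 after median-of-ratios scaling and to 0.247 without the 20 highest genes. All 8 chondrocyte markers were present, summing to 22947, 21772 and 23556 TPM in embryos against 12324, 10852 and 9325 TPM in adults, with *Col2a1* the highest of them in each sample. By the test described below 5 of the 8 were lower in adult samples, 2 (*Sox9* and *Comp*) were higher and 1 (*Acan*) was not called. The summed 8 leukocyte markers were 5.20, 6.50 and 14.7 TPM in embryos against 201, 19.3 and 123 TPM in adults, with *S100a8* and *S100a9* at 0 in the embryonic samples and in adult sample 2 and between 32.4 and 78.4 TPM in adult samples 1 and 3, while *Cd3e* was at 0 in all 6. The plasma cell genes *Jchain* and *Tnfrsf17*, of a cell type rich in the secretory machinery, were at 0 in all 6 samples, although their list summed to 164, 151 and 171 TPM in embryos against 38.5, 44.3 and 38.9 TPM in adults, most of it *Sdc1*.

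The osteoblast list, which holds *Col1a1*, summed to 5570.5, 4913 and 5996 TPM in embryos against 529.7, 857 and 1085 TPM in adults. The fall of that sum was that of *Col1a1*, since of the 7 genes 3 were higher in adult samples (*Bglap*, *Bglap2* and *Ibsp*), 2 were lower (*Col1a1* and *Dmp1*) and 2 were not called. The 5 tendon and fibroblast markers summed to 790.2, 590.3 and 581 TPM in embryos against 398, 305 and 434 TPM in adults. Of these, *Scx*, *Tnmd* and *Dpt* were lower in adult samples and *Mkx* was not called. *Thbs4* was higher and made up most of the adult sum, at 340, 242 and 394 TPM. Endothelial markers summed to at most 33.3 TPM, muscle markers to at most 55.7 TPM and erythroid markers to at most 104 TPM in any sample. Most of the muscle sum in embryos was *Des*, at 49.3, 50.6 and 46.0 TPM, which was lower in adult samples. The other muscle genes were not called or not tested. The part of these lists in the results that follow was not tested, and in bulk samples fewer cells of a type and less RNA per cell cannot be told apart.

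The comparison of adult with embryonic samples measured how transcripts of the secretory machinery differed between the stages. The chaperones were higher in adult samples more often than lower. The 5 genes of the translocon group, the KDEL receptors and the transcription factors *Creb3l1*, *Creb3l2* and *Xbp1* were lower. With limma and a Benjamini-Hochberg adjusted p under 0.05 over all tested genes, 13 of the 44 genes were higher in adult samples, 14 were lower and 17 were not called. The 27 called genes made up 61.4% of the 44, while 45.3% of all tested genes were called, 23.9% as higher and 21.4% as lower. The values of the stages did not overlap for 35 genes (79.5%), compared with 56.5% of all tested genes. The median log2 fold change of the 44 genes was -0.01, 22 being positive and 22 negative, beside 0.156 over the tested genes.

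The split depended on the scaling and on the adult samples. It was 9 higher and 17 lower after median-of-ratios scaling, 15 and 13 after quantile normalization, and 11 and 16 without adult sample 1. The split of all tested genes moved as well, from 3140 higher and 2809 lower to 2613 and 3238 after median-of-ratios scaling. For all tested genes it was 2792 and 2830 after quantile normalization, and 2830 and 2602 without adult sample 1. Leaving out adult samples 1 and 3, the libraries with *S100a8* and *S100a9*, left a lone adult sample. The median log2 fold change of the 44 genes was then -0.14, and calls from that fit are not given. The call held under each of 15 other settings of scaling, filter, variance model or samples for 18 of the 27 called genes and none of the 27 turned direction, the other 9 being *Hsp90b1*, *Pdia3*, *Dnajb11*, *Dnajc3*, *Sec61b*, *Ssr1*, *Ssr3*, *Mia2* and *Edem1*.

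**Figure D1:**
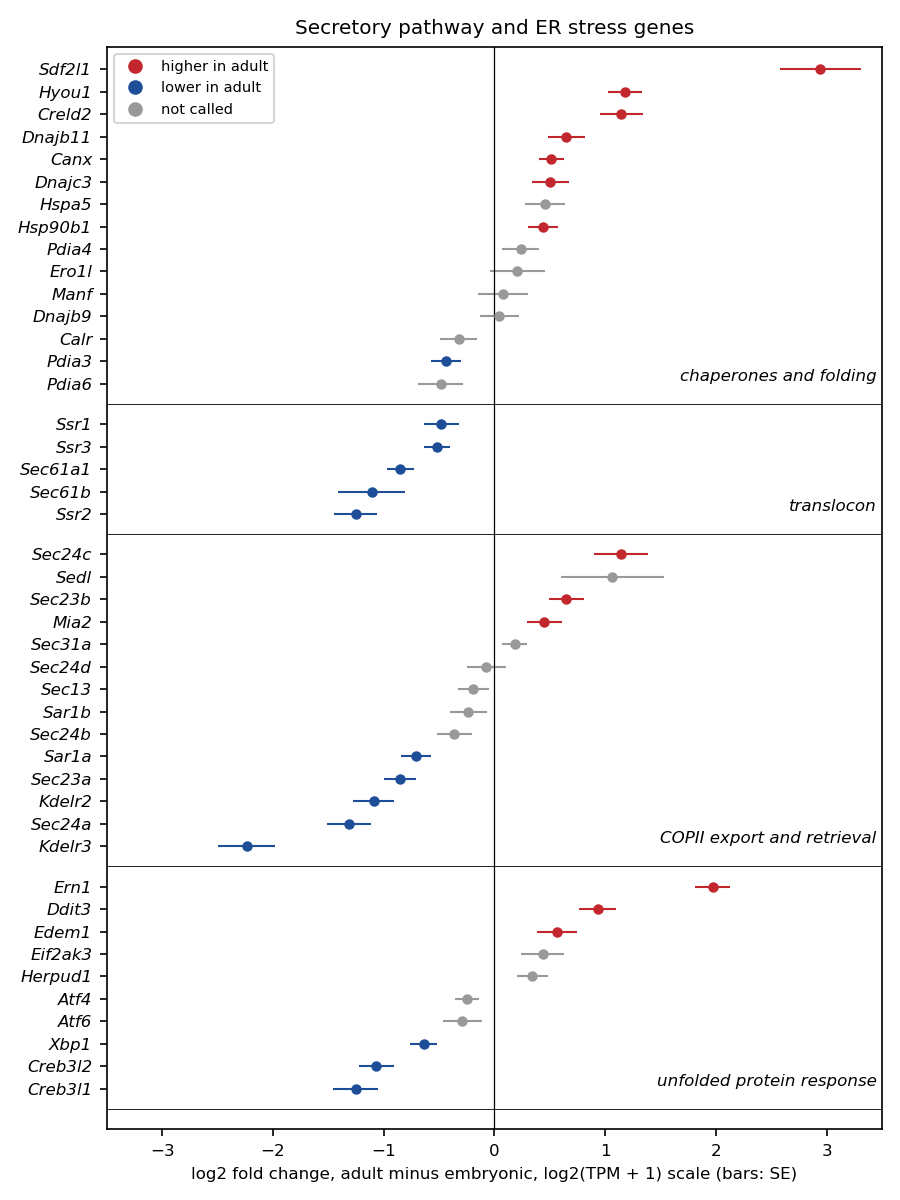
Log2 fold change (adult minus embryonic, log2(TPM + 1) scale) of the 44 genes by role group, with bars for the SE of the limma fit and colours for the call. All 5 translocon genes lie left of 0, from -1.25 to -0.48, while *Sdf2l1* at 2.94 and *Kdelr3* at -2.24 lie at the ends.

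Levels of the 44 genes ranged from a mean of 3.97 TPM for *Sedl* to 1813 TPM for *Calr*, and 27 had a mean of at least 100 TPM. Together they summed to 12617, 12404 and 12736 TPM in embryos against 14075, 10767 and 12428 TPM in adults, so that the totals of the stages overlapped. The 5 highest, *Calr*, *Hspa5*, *Atf4*, *Hsp90b1* and *Canx*, held 47.3% to 53.9% of that sum in each sample. The group of 15 chaperones summed to 7226, 7107 and 7371 TPM in embryos against 9547, 6651 and 8075 TPM in adults, with adult sample 2 below and adult samples 1 and 3 above every embryonic sample. The translocon summed to 1308, 1269 and 1309 TPM in embryos against 779, 617 and 789 TPM in adults, and here every adult sample lay below every embryonic sample. The SD of log2(TPM + 1) over the 3 samples was larger in adults than in embryos for 38 of the 44 genes and for 14 of the 15 chaperones, and for 62.1% of all tested genes.

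**Figure D2:**
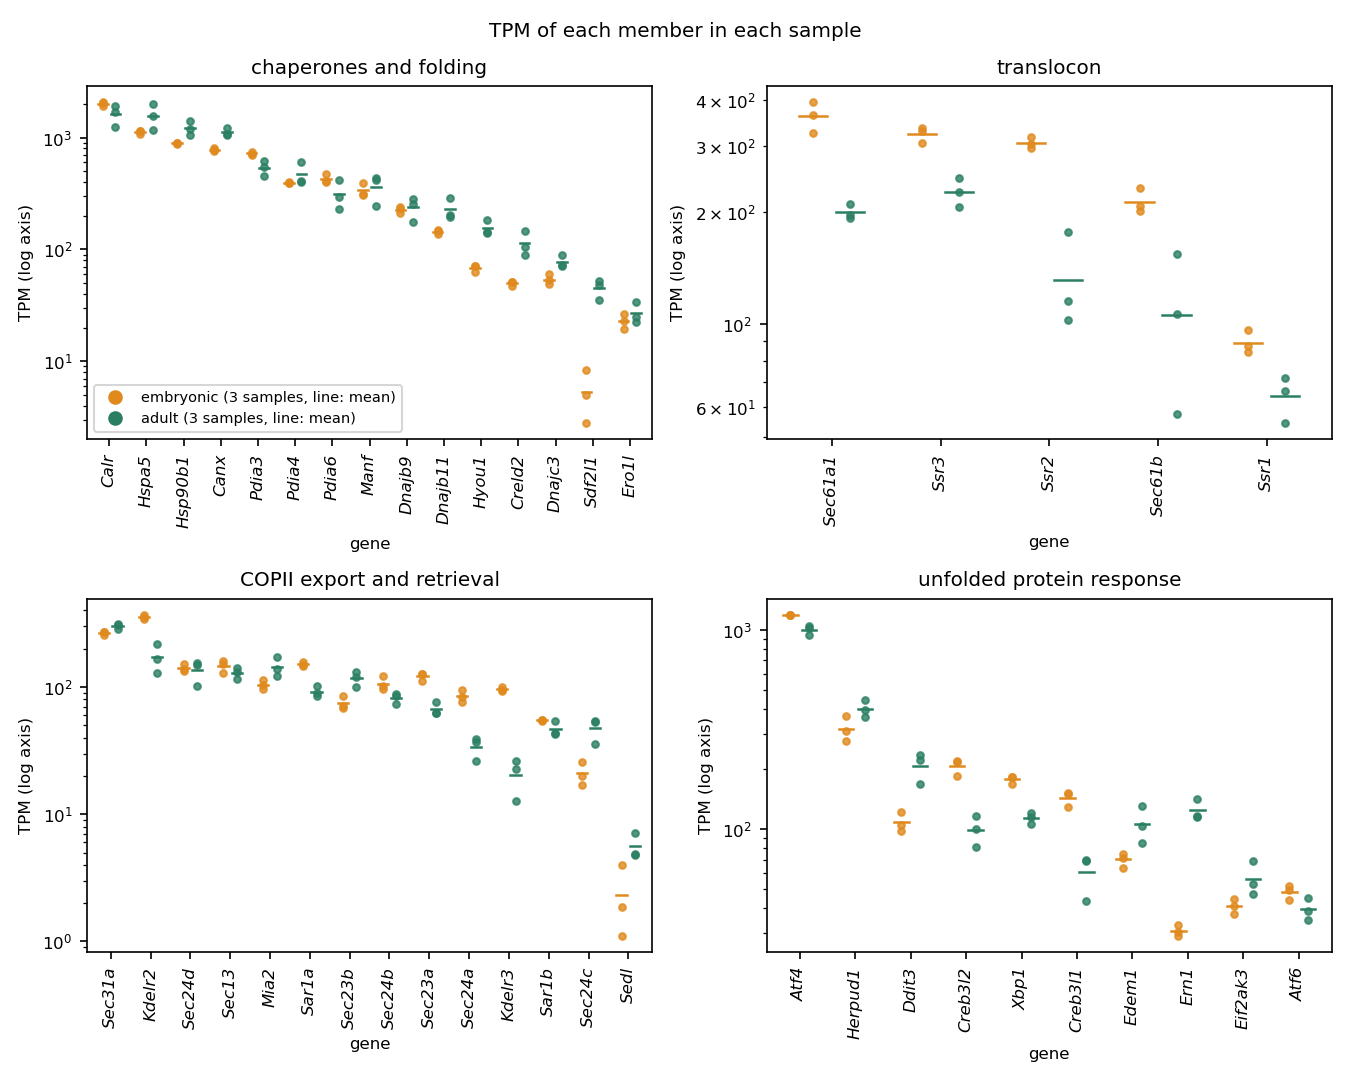
TPM on a log axis for each gene (x axis, ordered by mean TPM) in each of the 3 embryonic and 3 adult samples, with a line at the mean of each stage, in a panel for each role group. *Calr* and *Hspa5* lead the chaperones, *Atf4* stands far above the other genes of the unfolded protein response, and adult values spread more than embryonic values for most chaperones.

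Among chaperones and folding enzymes, 7 of 15 were higher in adult samples, 1 was lower and 7 were not called, with a median log2 fold change of 0.44. Over all tested genes the median was 0.156. The share called was 53.3%, beside 45.3% of all tested genes, and 23.9% of all were higher. The largest differences were those of *Sdf2l1*, *Hyou1* and *Creld2*. *Sdf2l1*, whose protein works with the cochaperone encoded by *Dnajb11*, stood at 8.29, 2.79 and 4.98 TPM in embryos against 52.4, 35.4 and 48.1 TPM in adults. The lowest adult value was above the highest embryonic value, with a log2 fold change of 2.94 ± 0.37 (SE) and an adjusted p of 0.000317. *Hyou1*, which encodes the nucleotide exchange factor GRP170 of BiP, had 70.5, 71.1 and 62.6 TPM in embryos against 185, 139 and 144 TPM in adults. Its stages did not overlap either, with a log2 fold change of 1.18 ± 0.16 (SE) and an adjusted p of 0.000432. *Creld2*, an ER stress gene with disulfide isomerase activity and with an ER stress element above, had 47.3, 50.8 and 51.2 TPM in embryos against 147, 89.8 and 105 TPM in adults. Adult sample 1 was the highest and all 3 adult samples exceeded the embryonic ones, with a log2 fold change of 1.15 ± 0.19 (SE) and an adjusted p of 0.00167.

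*Calr*, the lectin chaperone calreticulin and the highest of the group by mean TPM, stood at 2030.4, 1897 and 2074 TPM in embryos against 1925, 1244 and 1705 TPM in adults. Adult samples 2 and 3 lay below every embryonic sample, while adult sample 1 lay among the embryonic values, so that the stages overlapped. The gene was not called by limma, with a log2 fold change of -0.32 ± 0.17 (SE) and an adjusted p of 0.147. Its membrane-bound counterpart *Canx*, calnexin, differed in the other direction, with 800.5, 780.3 and 757 TPM in embryos against 1228, 1054 and 1065 TPM in adults. The stages of *Canx* did not overlap, with a log2 fold change of 0.51 ± 0.11 (SE) and an adjusted p of 0.00665. *Hspa5* encodes BiP, the central chaperone of the ER and the sensor partner of the unfolded protein response. It stood at 1064, 1149 and 1136 TPM in embryos against 1977, 1171 and 1548 TPM in adults. Every adult value exceeded the embryonic values, adult sample 2 only narrowly, and the difference was not called, with a log2 fold change of 0.46 ± 0.18 (SE) and an adjusted p of 0.07. The call of *Hspa5* rested on the setting, since with limma it passed after quantile normalization (log2 fold change 0.77, adjusted p = 0.00397), without the 20 highest genes (0.55, adjusted p = 0.0351) and without adult sample 2 (0.65, adjusted p = 0.00833). With limma *Calr* was called lower without adult sample 1 (-0.46, adjusted p = 0.0414). Its log2 fold change was -0.68 without adult samples 1 and 3.

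*Hsp90b1*, the ER paralog of HSP90 known as GRP94, was higher in adult samples (log2 fold change 0.44, adjusted p = 0.0274), with all adult values between 1043 and 1410.4 TPM above the embryonic 876 to 903 TPM. The cochaperones of BiP with a J domain did not move alike. *Dnajb11* was higher (log2 fold change 0.65, adjusted p = 0.0122) and *Dnajc3* was higher (log2 fold change 0.51, adjusted p = 0.034), while *Dnajb9*, at 238, 228 and 212 TPM in embryos against 177, 255 and 281 TPM in adults, overlapped between stages and was not called (adjusted p = 0.848). Of the disulfide isomerases, which form and reshuffle disulfide bonds, *Pdia3* was lower (log2 fold change -0.43, adjusted p = 0.0282). *Pdia6* (log2 fold change -0.49, adjusted p = 0.078) and *Pdia4* (0.24, adjusted p = 0.267) were not called. The oxidase gene *Ero1l* (0.21, adjusted p = 0.512) and the ER stress gene *Manf* (0.08, adjusted p = 0.798) were not called either, and *Manf* shares exon bases with *Rbm15b* on the same strand. *Pdia3* and *Pdia6* share exon bases with genes on the opposite strand (*Catsper2* and *Atp6v1c2*), which libraries without strand cannot separate.

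Leaving out adult samples 1 and 3 altered the median log2 fold change of the chaperones to 0.17. In the adult sample then left, *Calr*, *Pdia3*, *Pdia6* and *Manf* lay below every embryonic sample. *Ero1l* lay among the embryonic values and the other chaperones lay above them. By eBayes without trend 4 chaperones were higher and 0 lower.

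A further 25 genes of ER folding chosen from the pathway were called lower in adult samples more often than higher. Of the 24 tested, 11 were lower, 2 were higher and 11 were not called, with a median log2 fold change of -0.35, and *Clgn*, near 0 in every sample, was not tested. The 54.2% called stood beside 45.3% of all tested genes, and 21.4% of all were lower. *Fkbp7* and *Fkbp11*, ER prolyl isomerases, showed the largest falls. *Fkbp7* stood at 161, 179.9 and 143 TPM in embryos against 35.0, 9.91 and 16.3 TPM in adults, without overlap and with a log2 fold change of -3.10 ± 0.37 (SE) and an adjusted p of 0.000275. *Fkbp11* stood at 88.2, 83.1 and 80.2 TPM in embryos against 45.4, 2.27 and 17.7 TPM in adults, the adult samples spreading widely around a log2 fold change of -2.58 (adjusted p = 0.0251, and up to 0.077 over the other settings). The 2 that rose were the folding sensor *Uggt1* (log2 fold change 0.93, adjusted p = 0.0021) and the oxidase *Ero1lb* (log2 fold change 1.35, adjusted p = 0.0315), the latter at no more than 5.83 TPM in any sample and not called when any of 5 samples was left out. The other 9 lower genes, named after their values were seen, were *P4hb*, *Pdia5*, *Txndc5*, *Ppib*, *Fkbp10*, *Fkbp14*, *Serpinh1*, *Erp29* and *Cnpy2*, of which *Txndc5*, *Ppib*, *Fkbp10*, *Fkbp14* and *Erp29* share exon bases with genes on the opposite strand. Among these *Serpinh1* (HSP47), *P4hb*, *Ppib* and *Fkbp10* encode proteins that act on procollagen. *Serpinh1* stood at 2216, 2221 and 2468 TPM in embryos against 1328, 821 and 893 TPM in adults, without overlap and with a log2 fold change of -1.21 ± 0.18 (SE) and an adjusted p of 0.000887. *P4hb*, a subunit of prolyl 4-hydroxylase, stood at 1886, 1878 and 1917 TPM in embryos against 1025, 715 and 828 TPM in adults, again without overlap and with a log2 fold change of -1.16 ± 0.15 (SE) and an adjusted p of 0.000338.

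All 5 genes of the translocon group were lower in adult samples, with log2 fold changes from -1.25 to -0.48 and no overlap between the stages. Of all tested genes 21.4% were lower. *Sec61a1* encodes the channel through which nascent chains pass and was the highest of the group by mean TPM over all 6 samples, although *Ssr3* was above it in every adult sample and in embryonic sample 2. Its values were 365, 325 and 394 TPM in embryos against 210.0, 196 and 193 TPM in adults, with a log2 fold change of -0.85 ± 0.12 (SE) and an adjusted p of 0.000686. *Ssr2*, a subunit of the translocon-associated TRAP complex, stood at 318, 297 and 305 TPM in embryos against 116, 103 and 177 TPM in adults. Adult sample 3 was the highest of its stage and still far below the embryonic samples, with a log2 fold change of -1.25 ± 0.19 (SE) and an adjusted p of 0.00105. *Sec61b*, a small subunit of the channel, had 201, 232 and 207 TPM in embryos against 155, 57.4 and 107 TPM in adults. The adult samples differed from one another by more than the embryonic samples did, with a log2 fold change of -1.11 ± 0.30 (SE) and an adjusted p of 0.0168. The TRAP subunits *Ssr3* (log2 fold change -0.52, adjusted p = 0.00793) and *Ssr1* (log2 fold change -0.48, adjusted p = 0.0369) were lower by less. The calls of *Sec61b*, *Ssr1* and *Ssr3* were lost under 3, 7 and 1 of the other settings. Their adjusted p by limma reached 0.0656, 0.122 and 0.0511 over those settings. The count of lower genes was 2 by eBayes without trend and 3 without embryonic sample 2 or 3. Without adult samples 1 and 3 the median log2 fold change was -0.87.

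Other genes of signal recognition, the translocon and signal peptide cleavage did not share that direction. Of 20 tested, 5 were higher, 4 were lower and 11 were not called, with a median of 0.06. The 45.0% called lay near the 45.3% of all tested genes. The signal peptidase subunits encoded by the paralogs *Sec11a* and *Sec11c* differed in opposite directions. *Sec11a* had 321, 404 and 330.2 TPM in embryos against 266, 205 and 166 TPM in adults, with a log2 fold change of -0.74 ± 0.18 (SE) and an adjusted p of 0.0105, although it shares exon bases with *Nmb* on the same strand. *Sec11c* had 23.7, 22.2 and 26.6 TPM in embryos against 141, 54.0 and 68.9 TPM in adults, with a log2 fold change of 1.70 ± 0.32 (SE) and an adjusted p of 0.00295. For both paralogs the stages were apart. *Sec61g*, the third subunit of the channel, was lower (log2 fold change -1.20, adjusted p = 0.00288). Of genes named after their values were seen, *Sec61a2*, a paralog of *Sec61a1*, was higher (log2 fold change 0.49, adjusted p = 0.0355). It shares exon bases with *Nudt5* on the opposite strand. *Ssr4* (0.09, adjusted p = 0.68) and *Sec63* (0.04, adjusted p = 0.838) were not called. *Srp54a*, a subunit of the signal recognition particle, was higher (log2 fold change 2.12, adjusted p = 0.0164), but its coding sequence is at least 95% identical to those of *Srp54b* and *Srp54c*, so that its value is uncertain. The list had 2 higher and 2 lower genes by eBayes without trend, and its median was -0.20 without adult samples 1 and 3. The count of higher genes was 1 without embryonic sample 1 and 2 without embryonic sample 3. It was 3 without embryonic sample 2, without adult sample 1, after quantile normalization or with median-of-ratios scaling, which left 7 lower.

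The oligosaccharyltransferase, which attaches N-glycans as chains enter the ER, was lower where it was called. Of its 12 genes 6 were lower, 0 were higher and 6 were not called, with a median log2 fold change of -0.34. Beside this, 45.3% of all tested genes were called, 21.4% of all were lower and the median of all was 0.156. *Tusc3*, an oxidoreductase subunit, stood at 73.6, 79.4 and 87.4 TPM in embryos against 33.7, 34.8 and 33.4 TPM in adults, with a log2 fold change of -1.21 ± 0.16 (SE) and an adjusted p of 0.000374. *Ostc*, a subunit of the complex that works at the translocon, stood at 214, 232 and 219 TPM in embryos against 101, 64.4 and 143 TPM in adults, with a log2 fold change of -1.18 ± 0.25 (SE) and an adjusted p of 0.0053. The stages of both did not overlap, and the same held for the other 4 lower genes, *Rpn1*, *Rpn2*, *Ddost* and *Stt3a*, with log2 fold changes from -0.64 to -0.40, although *Rpn2* shares exon bases with *Mroh8* on the opposite strand. The count of lower genes was 3 by eBayes without trend and without embryonic sample 3, and 4 without embryonic sample 1 or 2. The median was -0.41 without adult samples 1 and 3.

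Of the 14 genes of COPII export and retrieval with a value, 3 were higher in adult samples, 5 were lower and 6 were not called, with a median of -0.21. Called genes made up 57.1%, beside 45.3% of all tested genes. In the inner coat the paralogs *Sec23a* and *Sec23b* differed in opposite directions, as did *Sec24a* and *Sec24c*. *Sec23a* and *Sec23b* encode the alternative inner coat subunits that activate the GTPase Sar1, and *Sec23a* is the paralog that cartilage depends on. *Sec23a* stood at 111, 127 and 126 TPM in embryos against 61.98, 75.8 and 62.9 TPM in adults, with a log2 fold change of -0.85 ± 0.15 (SE) and an adjusted p of 0.0018. *Sec23b* stood at 67.9, 85.1 and 70.4 TPM in embryos against 101, 131 and 121 TPM in adults, with a log2 fold change of 0.65 ± 0.16 (SE) and an adjusted p of 0.0105. Neither paralog overlapped between the stages. The share of *Sec23a* in the sum of both was 62.2, 59.8 and 64.2% in embryos against 38.0, 36.7 and 34.3% in adults, so that *Sec23a* was the more abundant paralog in all embryonic and *Sec23b* in all adult samples. Their sum was 179, 212 and 196 TPM in embryos against 163, 207 and 184 TPM in adults, with overlapping stages.

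The 4 *Sec24* genes encode the cargo adaptors of the inner coat. *Sec24a* had 83.3, 75.8 and 94.8 TPM in embryos against 36.8, 38.9 and 26.0 TPM in adults, with a log2 fold change of -1.31 ± 0.20 (SE) and an adjusted p of 0.000934. *Sec24c* had 26.0, 19.9 and 17.0 TPM in embryos against 54.2, 53.1 and 35.7 TPM in adults, with a log2 fold change of 1.14 ± 0.25 (SE) and an adjusted p of 0.00578. The stages of *Sec24a* lay apart in the lower direction and those of *Sec24c* in the higher. *Sec24d*, the adaptor linked to procollagen export, had 152, 138 and 133 TPM in embryos against 150.1, 155 and 103 TPM in adults. It overlapped between stages and was not called, with a log2 fold change of -0.07 ± 0.18 (SE) and an adjusted p of 0.754, and its sign turned with the setting. *Sec24b* was not called (log2 fold change -0.36, adjusted p = 0.0863), except after median-of-ratios scaling (-0.51, adjusted p = 0.0215). *Sec24d* held the largest share of the summed *Sec24* TPM in each sample, with 39.7, 41.9 and 38.5% in embryos against 47.8, 46.7 and 40.5% in adults. The share of *Sec24c*, the least abundant of the 4 in the embryonic samples, was 6.78, 6.05 and 4.92% in embryos against 17.2, 16.0 and 14.1% in adults. That of *Sec24a* was 21.8, 23.0 and 27.4% in embryos against 11.7, 11.7 and 10.3% in adults, so that *Sec24c* exceeded *Sec24a* in each adult sample.

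**Figure D3:**
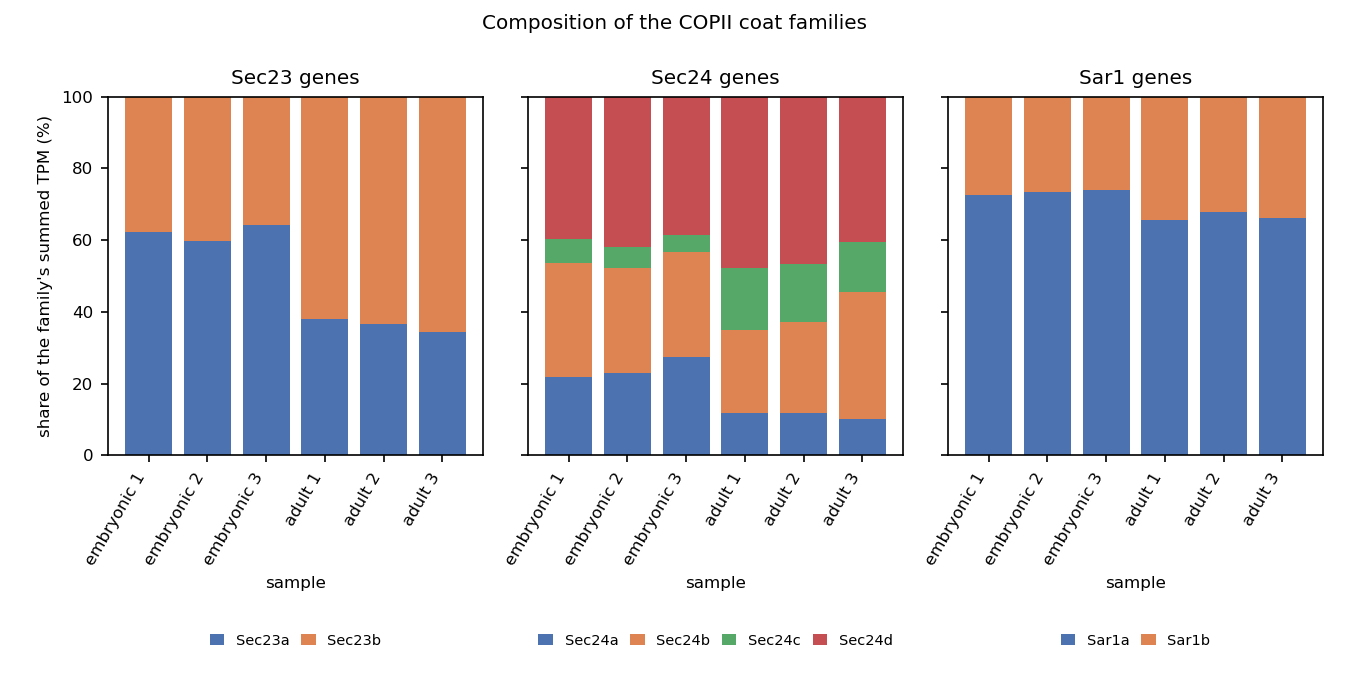
Share of each paralog in the summed TPM of the *Sec23*, *Sec24* and *Sar1* genes (percent, y axis) in each embryonic and adult sample (x axis), as stacked bars from 0 to 100. The share of *Sec23a* falls from 59.8% to 64.2% in the embryonic samples to 34.3% to 38.0% in the adult samples, and that of *Sec24c* is larger in every adult sample.

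*Sar1a* and *Sar1b* encode the GTPase that starts coat assembly. *Sar1a* had 145, 149 and 158 TPM in embryos against 103, 89.5 and 84.5 TPM in adults, with no overlap and a log2 fold change of -0.71 ± 0.13 (SE) and an adjusted p of 0.00295. *Sar1b* had 54.8, 54.0 and 55.5 TPM in embryos against 54.0, 42.4 and 43.3 TPM in adults, adult sample 1 only just below the embryonic ones, and was not called, with a log2 fold change of -0.24 ± 0.17 (SE) and an adjusted p of 0.271. The outer coat was not called. *Sec31a*, the highest gene of the group by mean TPM over all 6 samples, although *Kdelr2* was above it in every embryonic sample, stood at 269.9, 256 and 272 TPM in embryos against 311, 309.9 and 285 TPM in adults, with a log2 fold change of 0.18 ± 0.11 (SE) and an adjusted p of 0.209. Its adult values were all above its embryonic values. The partner *Sec13* overlapped between stages (log2 fold change -0.19, adjusted p = 0.303). *Mia2*, which encodes a receptor for large cargo at ER exit sites and the binding partner of the product of *Mia3*, stood at 114, 104 and 95.7 TPM in embryos against 122, 139.5 and 172 TPM in adults. All adult values were above the embryonic ones, with a log2 fold change of 0.45 ± 0.16 (SE) and an adjusted p of 0.047, and the call was lost under 9 of the other settings, with adjusted p up to 0.146. *Sedl* (*Trappc2*), the gene of X-linked spondyloepiphyseal dysplasia tarda, was the lowest of the 44 at 4.02, 1.10 and 1.86 TPM in embryos against 7.15, 4.89 and 4.77 TPM in adults. Its stages did not overlap, it was not called (log2 fold change 1.07, adjusted p = 0.0906), and it has a near-identical copy, *Gm13080*, in the annotation.

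Ratios between paralogs or partners within a sample were taken as differences of log2(TPM + 1). A common factor per sample cancels in them apart from the pseudocount, whereas quantile normalization changes them. They were tested by exact permutation of 3 against 3 samples, two-sided, which cannot give a p under 0.1. The log2 ratio of *Sec23a* to *Sec23b* was 0.71, 0.57 and 0.83 in embryos against -0.69, -0.78 and -0.93 in adults, a difference of -1.50. The ratio of *Sec24d* to *Sec24c* was 2.50, 2.73 and 2.90 in embryos against 1.45, 1.53 and 1.49 in adults, a difference of -1.22. For *Sar1a* to *Sar1b* it was 1.39, 1.45 and 1.49 in embryos against 0.91, 1.06 and 0.95 in adults, a difference of -0.47. These 3 ratios were lower in every adult sample than in any embryonic sample. The ratio of *Kdelr2* to *Kdelr3* was 1.86, 1.81 and 1.97 in embryos against 3.01, 2.82 and 3.25 in adults, higher in every adult sample by a mean of 1.15. That of *Creb3l1* to *Creb3l2* was -0.52, -0.52 and -0.54 in embryos against -0.52, -1.39 and -0.23 in adults, the adult samples lying on both sides of the embryonic ones. The exact p was 0.1, the smallest possible, for the first 4 ratios (adjusted p = 0.125 over the 5 ratios) and 1 for the last (adjusted p = 1 by the same permutation test).

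The KDEL receptors were lower in adult samples. *Kdelr2* stood at 344, 356 and 371 TPM in embryos against 217, 167 and 128 TPM in adults, with a log2 fold change of -1.09 ± 0.18 (SE) and an adjusted p of 0.00158. *Kdelr3* stood at 93.9, 100.4 and 94.2 TPM in embryos against 26.0, 22.8 and 12.6 TPM in adults, with a log2 fold change of -2.24 ± 0.26 (SE) and an adjusted p of 0.000217. Adult sample 3 was the lowest for both and no adult value reached an embryonic one. Reads of *Kdelr3* may include those of *Ddx17*, with which it shares exon bases on the opposite strand. The third receptor, *Kdelr1*, named after its values were seen, was lower as well, at 82.9, 79.1 and 101 TPM in embryos against 63.1, 45.1 and 50.7 TPM in adults (log2 fold change -0.72, adjusted p = 0.0111).

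The coat and partners of retrieval by COPI, which carries the KDEL receptors back to the ER, were a list of 14 genes with *Kdelr1* among them. Of these, 5 were lower in adult samples, 0 were higher and 9 were not called, the median being -0.34 and 13 of 14 fold changes negative. The called genes made up 35.7%, beside 45.3% of all tested genes, and 21.4% of all were lower. *Copz2*, an alternative coat subunit, stood at 153, 139 and 169.7 TPM in embryos against 22.1, 25.4 and 34.7 TPM in adults. The adult values were far below the embryonic ones, with a log2 fold change of -2.47 ± 0.19 (SE) and an adjusted p of 2.71e-05. *Arcn1*, the delta subunit of the coat, stood at 447, 426 and 436 TPM in embryos against 220.1, 211 and 187 TPM in adults, with a log2 fold change of -1.08 ± 0.12 (SE) and an adjusted p of 0.000142 and without overlap, but it has near-identical copies, *Gm8750* and *Gm8752*, in the annotation, so that its value is uncertain. The list had 8 lower genes after median-of-ratios scaling. *Copb2* and the GTPase gene *Arf1* completed the 5 (log2 fold change -0.70, adjusted p = 0.00313 and log2 fold change -0.75, adjusted p = 0.00107).

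In the list of 22 other genes of COPII and ER exit, 4 were higher, 3 were lower and 15 were not called, with a median of 0.23. This made 31.8% called, beside 45.3% of all tested genes. The count of higher genes was 7 without the 20 highest genes, and the median was 0.14 without adult samples 1 and 3. Those named here for the largest changes were the cargo receptor genes *Lman1* and *Tmed2*, which were lower, and *Trappc5* and *Gosr2*, of tethering and fusion with the Golgi, which were higher. *Lman1* stood at 398, 339.6 and 383 TPM in embryos against 234, 157 and 155 TPM in adults, with a log2 fold change of -1.06 ± 0.18 (SE) and an adjusted p of 0.00149. *Tmed2* was lower by less (log2 fold change -0.52, adjusted p = 0.0167) and is uncertain for its near-identical copies *Gm10698* and *Gm7318*. Of the higher genes, *Trappc5* stood at 17.5, 17.6 and 10.6 TPM in embryos against 32.7, 31.3 and 30.7 TPM in adults, with a log2 fold change of 1.04 ± 0.26 (SE) and an adjusted p of 0.0109, and *Gosr2* had a log2 fold change of 0.91 (adjusted p = 0.0093). For all 4 genes the stages lay apart. The direction of *Lman1*, *Tmed2*, *Trappc5* and *Gosr2* was kept without adult samples 1 and 3, which leaves a lone adult sample and no adult spread.

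Of the 10 genes of the unfolded protein response, 3 were higher in adult samples, 3 were lower and 4 were not called. Their median log2 fold change was 0.05, beside 0.156 over all tested genes. Of all tested genes 45.3% were called, 23.9% as higher and 21.4% as lower. The 3 lower genes were transcription factors. *Creb3l1* (OASIS), a membrane-bound factor that raises collagen genes in bone, had 151, 129 and 149.8 TPM in embryos against 69.7, 43.5 and 68.9 TPM in adults. Adult sample 2 was the lowest and the stages did not overlap, with a log2 fold change of -1.25 ± 0.20 (SE) and an adjusted p of 0.00126. *Creb3l2* (BBF2H7), known to activate *Sec23a* in chondrocytes, had 217, 185 and 218 TPM in embryos against 100.2, 116 and 81.1 TPM in adults, with a log2 fold change of -1.06 ± 0.16 (SE) and an adjusted p of 0.000919. Its stages were equally apart. *Xbp1*, the factor whose transcript is spliced by IRE1, had 183, 169 and 182 TPM in embryos against 115, 106 and 121 TPM in adults. The adult samples were all lower, with a log2 fold change of -0.64 ± 0.12 (SE) and an adjusted p of 0.00324, while splicing cannot be read from a value per gene.

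Of the 3 stress sensors, only the gene of IRE1 was called with all 6 samples. *Ern1* had 33.1, 30.3 and 29.0 TPM in embryos against 117, 114 and 141 TPM in adults. The adult values lay far above the embryonic values in all 3 samples, with a log2 fold change of 1.97 ± 0.16 (SE) and an adjusted p of 3.01e-05, the smallest adjusted p of the 44 genes. *Eif2ak3*, which encodes PERK, had 41.0, 37.4 and 44.3 TPM in embryos against 46.9, 68.8 and 53.0 TPM in adults. Its adult values were all above the embryonic ones. It was not called, with a log2 fold change of 0.44 ± 0.19 (SE) and an adjusted p of 0.0939. Without adult samples 1 and 3 its log2 fold change was 0.74. *Atf6* had 51.9, 44.2 and 49.4 TPM in embryos against 38.8, 35.0 and 45.0 TPM in adults, overlapped between stages and was not called, with a log2 fold change of -0.29 ± 0.18 (SE) and an adjusted p of 0.209. These are transcript levels of the sensors and not their activity.

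Downstream of PERK, *Atf4* encodes the factor of the integrated stress response and was the highest gene of the group by mean TPM. It had 1182, 1183 and 1188 TPM in embryos against 1045, 937 and 1014 TPM in adults. Its adult values were all below the embryonic ones by a small margin, with a log2 fold change of -0.25 ± 0.11 (SE) and an adjusted p of 0.0928. Its sign turned after quantile normalization (0.06), and the gene was called lower after median-of-ratios scaling (-0.39, adjusted p = 0.0206). Without adult samples 1 and 3 its log2 fold change was -0.34. *Ddit3* (CHOP), a target of ATF4 linked to cell death under lasting stress, had 97.7, 122 and 105 TPM in embryos against 221, 168 and 236 TPM in adults. All adult values exceeded the embryonic values, with a log2 fold change of 0.93 ± 0.16 (SE) and an adjusted p of 0.00209, although *Ddit3* shares exon bases with *Mars* on the opposite strand. Of the 2 genes of ER-associated degradation among the 44, *Edem1* was higher (log2 fold change 0.57, adjusted p = 0.0303, and up to 0.102 over the other settings). *Herpud1* was not called (log2 fold change 0.34, adjusted p = 0.079), though it passed after quantile normalization (0.48, adjusted p = 0.0257), without the 20 highest genes (adjusted p = 0.0361) and without embryonic sample 2 (adjusted p = 0.0483).

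ER-associated degradation returns misfolded proteins to the cytosol for destruction, and its other genes were higher in adult samples where they were called. Of 16 tested, 5 were higher, 0 were lower and 11 were not called, with a median of 0.37, so that 31.2% were called beside 45.3% of all tested genes, and 23.9% of all were higher. The list had 8 higher genes without the 20 highest genes, and its median was 0.48 without adult samples 1 and 3. *Derl2*, which encodes a derlin of the retrotranslocation machinery, stood at 9.21, 15.1 and 12.2 TPM in embryos against 54.0, 52.5 and 65.0 TPM in adults. Its stages were well apart, with a log2 fold change of 2.16 ± 0.24 (SE) and an adjusted p of 0.000169, although *Derl2* shares exon bases with *Mis12* on the opposite strand. *Edem2*, which trims mannose from misfolded glycoproteins, stood at 2.94, 4.73 and 3.16 TPM in embryos against 13.9, 8.06 and 12.8 TPM in adults. Its log2 fold change was 1.44 ± 0.38 (SE) with an adjusted p of 0.0139, and adult sample 2 was the lowest of the adult samples. The other 3, named after their values were seen, were *Sel1l* (0.89), *Vcp* (0.85) and *Faf2* (0.86), with adjusted p of at most 0.002 and stages that did not overlap, but *Vcp* has a near-identical copy, *Vcp-rs*, and shares exon bases with a gene on the opposite strand. *Derl3* was at 0 in every embryonic sample, had 1.16, 2.81 and 0.427 TPM in adults and was not tested.

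Of 27 tested genes in a wider list of the unfolded protein response and the integrated stress response, 8 were higher in adult samples, 6 were lower and 13 were not called, with a median of 0.09. Called genes made up 51.9%, beside 45.3% of all tested genes. Transcription factors of the same bZIP class as ATF4 differed in both directions, and *Creb3l3*, at 0 in 4 samples, was not tested. *Atf5* had 46.8, 61.8 and 62.4 TPM in embryos against 281, 403 and 342 TPM in adults, with a log2 fold change of 2.56 ± 0.18 (SE) and an adjusted p of 1.39e-05, although it shares exon bases with *Il4i1* on the opposite strand. *Atf3* had 627, 645 and 685 TPM in embryos against 80.5, 119.8 and 138 TPM in adults, with a log2 fold change of -2.56 ± 0.19 (SE) and an adjusted p of 2.04e-05. The adult values of *Atf5* were several times the embryonic ones and those of *Atf3* far below them. *Nupr1*, a stress-induced gene, had 261, 230.2 and 282 TPM in embryos against 789, 1216 and 1077 TPM in adults, with a log2 fold change of 1.97 ± 0.17 (SE) and an adjusted p of 4.64e-05. *Sesn2*, a target of ATF4, had 94.98, 106 and 106 TPM in embryos against 32.0, 36.6 and 51.3 TPM in adults, with a log2 fold change of -1.36 ± 0.20 (SE) and an adjusted p of 0.000701. None of these 4 genes overlapped between stages. *Atf3* is also an immediate early gene that can rise during tissue dissociation, and other immediate early genes are given among the other observations. The other called genes, named after their values were seen, were *Atf6b*, *Eif2ak1*, *Trib3*, *Cebpb*, *Slc7a11* and *Vldlr*, which were higher, and *Eif2s1*, *Ppp1r15b*, *Psat1* and *Phgdh*, which were lower. Of these, *Eif2s1* and *Phgdh* have near-identical copies in the annotation, and *Cebpb* and *Eif2ak1* share exon bases with genes on the opposite strand.

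Over the 7 further lists, 24 of 135 tested genes were higher in adult samples, 35 were lower and 76 were not called, so that 43.7% were called beside 45.3% of all tested genes. The split was 19 higher and 44 lower after median-of-ratios scaling, and the median log2 fold change was -0.10 without adult samples 1 and 3.

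**Figure D4:**
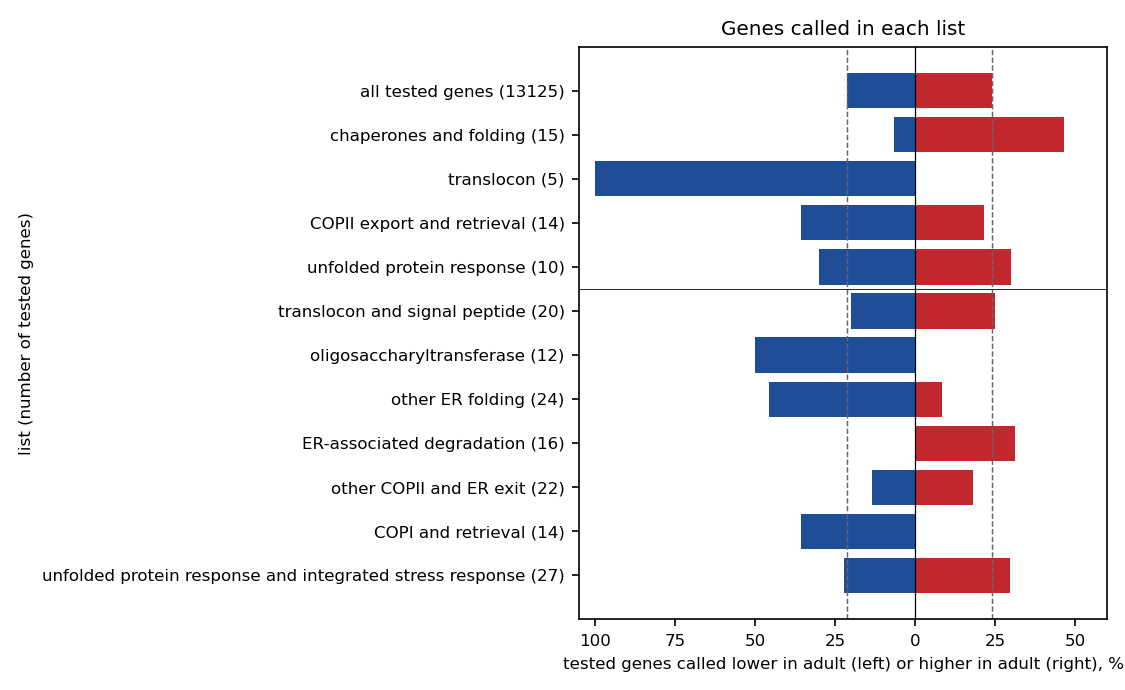
Percent of tested genes called lower (left, blue) or higher (right, red) in adult samples for all tested genes, the 4 role groups and the 7 further lists, with the number of tested genes in brackets and dashed lines at the shares of all tested genes (21.4% and 23.9%). The translocon, oligosaccharyltransferase and COPI lists have lower genes and 0 higher genes, and ER-associated degradation has higher genes and 0 lower genes.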

How the data were processed

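RNA-seq was measured in 3 embryonic and 3 adult samples of mouse knee cartilage. The authors mapped single-end reads to GRCm38, estimated transcript levels with RSEM (version not given in the sources used here) and deposited log2(TPM + 1) per gene. TPM sums to the same total in each of the 6 samples and keeps no depth, so precision rests on the spread of 3 samples. The methods name Nugen Ovation cDNA, which does not mark strand, and a Kapa LTP kit, whereas the labels name a Kapa mRNA-Seq kit. Read totals were not used here.

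Symbols came from GENCODE M21 (21902 of 22032 genes, 130 had none), and *Sedl* was matched as *Trappc2* through a RefSeq synonym. *Mia3* was not analysed here, and proteins were not analysed.

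The 13125 genes whose mean reached 1 TPM were fitted with limma 3.58.1 in R 4.3.3 (eBayes with trend, pseudocount of 1, stage as the only term), and Benjamini-Hochberg adjustment ran over all of them. The pseudocount makes fold changes of low genes smaller than they are. EBSeq, named in the methods, needs counts and was not used. In simulated data for this comparison with 13125 genes, limma called 89 of the 200 genes that were changed, none with the wrong sign, and 1 other gene. The simulation gave both stages the same spread and changed few genes. In the data 45.3% of tested genes were called, and the adult spread was larger for 62.1% of tested genes. The error rates of the simulation therefore do not carry over.

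The genes, the 7 further lists, the 9 marker lists and the tests were chosen with earlier results of these data known. Each sample is given for genes called with an absolute log2 fold change of at least 1, the highest gene of each role group, the regulators and the genes of the ratios. From each further list the 2 largest changes in each direction among called genes with stages apart are named.

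Other settings varied the pseudocount (0.1), the filter (none, or 5 TPM), the scaling (quantile, median-of-ratios, or rescaling after dropping the 20 highest genes), the variance model (robust, or no trend), the threshold (0.01), a replicate block and the samples (each dropped in turn). Dropping adult samples 1 and 3 together was added after seeing the data. Copies were sought with BLAST+ 2.17.0 (at least 95% identity over 90% of the coding length). Python 3.11.15 with pandas 2.3.3 and numpy 2.4.6 built the tables, and matplotlib 3.10.9 drew the plots.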

Additional observations from a re-analysis of the deposited data

How the results depend on the processing

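TPM carries no read depth and each stage had 3 samples, so that the spread between few samples limits every call, and the adult samples differed among themselves in the chaperones and in leukocyte markers. Counts of calls were compared for all tested genes, the 44 secretory genes and the 135 other pathway genes. Leaving aside the fit without adult samples 1 and 3, they stayed within 1.5 times the reported ones except in the cases that follow. Counts of single lists moved by more in several cases, the main ones given beside their results. At an adjusted p under 0.01, 1855 of all tested genes were higher and 1863 lower, and 7 of the 44 secretory genes and 14 of the 135 other pathway genes were higher. Among the 44, 8 were higher by eBayes without trend. Without adult samples 1 and 3, where the lone adult sample is assumed to vary like the embryonic ones, 1761 of all tested genes and 14 of the other pathway genes were higher, and the median log2 fold change of the 44 was -0.14. That median was -0.16 after median-of-ratios scaling, 0.082 without the 20 highest genes, and from -0.098 (without adult sample 1) to -0.0031 (without embryonic sample 1) with a sample left out. The direction reversed for *Dnajb9* (-0.10) and *Manf* (-0.070) after median-of-ratios scaling, for *Sec24d* after quantile normalization (0.021) and without the 20 highest genes (0.023), for *Atf4* after quantile normalization (0.061), and without adult samples 1 and 3 for *Manf* (-0.46) and *Sec24d* (0.14), none of which was called. With a sample left out, the log2 fold change ranged from -0.088 to 0.24 for *Dnajb9*, from -0.077 to 0.35 for *Manf* and from -0.18 to 0.12 for *Sec24d*, and the difference in the ratio of *Creb3l1* to *Creb3l2* from -0.43 to 0.15. The causes were not tested.

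With the replicate block, 2871 of all tested genes were higher and 2559 lower, and of the 44 genes 9 were higher and 12 lower, *Hsp90b1*, *Pdia3*, *Dnajc3*, *Ssr1*, *Mia2* and *Edem1* no longer being called. The replicate numbers share only a name, since embryos and adults are different animals, the deviations of same-numbered samples correlated at -0.022 to -0.009, and 0 of the 6 samples correlated best with its own number in the other stage. The ratio of *Mia3* to *Mia2* and the C termini of the proteins were not run. The ratio differences of the other 4 pairs kept their direction under a pseudocount of 0.1, quantile normalization and each sample left out.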

Other observations

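Genes raised by tissue digestion or heat shock were a list of 10 outside the comparisons above. Of these, 2 were higher in adult samples, 3 were lower and 5 were not called, with a median log2 fold change of 0.14. Over all tested genes the median was 0.156, and 45.3% were called, 23.9% as higher and 21.4% as lower. The list summed to 3503, 3169 and 3881 TPM in embryos against 3603, 5026 and 4921 TPM in adults. *Hspa1b*, a cytosolic HSP70, stood at 239.6, 159 and 221 TPM in embryos against 658, 1461 and 1497 TPM in adults, with a log2 fold change of 2.47 and an adjusted p of 0.000318 by limma, while its near-identical neighbour *Hspa1a* was not called (0.72, adjusted p = 0.167), and reads of the 2 genes cannot be told apart with confidence. The immediate early genes *Fosb* (log2 fold change -1.29, adjusted p = 0.000273) and *Jun* (-0.93, adjusted p = 0.00417) were lower in adult samples, as was the cytosolic cochaperone gene *Dnajb1* (-0.79, adjusted p = 0.0141), whereas *Junb* was higher (0.75, adjusted p = 0.000989), and both *Jun* and *Junb* share exon bases with genes on the opposite strand. *Fos* (adjusted p = 0.0624), *Egr1* (adjusted p = 0.331), *Ier2* (adjusted p = 0.914) and *Hsph1* (adjusted p = 0.278) were not called.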
